A study of Rattus norvegicus with 8 samples.

Results

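The miR-30 family was examined in small RNA sequencing of rat exosomes, membrane-bound particles shed by cells. They came from nucleus pulposus progenitor cells (NPPC) and from nucleus pulposus cells (NPC) of the intervertebral disc, whose soft centre is the nucleus pulposus, with 4 libraries each. The labels named no established cell line, genotype, strain, treatment, passage or age for either group, and gave no separate culture or animal for each library. The spread behind each p-value is thus that between libraries and may be technical. Members were chosen by name: the 5 mature 5p miRNAs rno-miR-30a-5p, rno-miR-30b-5p, rno-miR-30c-5p, rno-miR-30d-5p and rno-miR-30e-5p, and the 3p arms rno-miR-30a-3p and rno-miR-30e-3p. These 7 of 415 rat mature names took up 8 of the 455 rat rows of the deposited table, and all 7 passed the filter on low counts.

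The miR-30 family is a vertebrate miRNA family whose 5p members share one seed, the bases that pair with target messenger RNAs, and so are predicted to repress overlapping targets. Members are known to repress Runx2 and Smad1 in osteoblast precursors, Snai1, a driver of epithelial-mesenchymal transition, Becn1, a starter of autophagy, and Ccn2, a matrix-inducing growth factor that nucleus pulposus cells also make. The hairpins lie in pairs. In the deposited table, whose genome build is not given in the sources used here, mir-30a (chr9:29542629-29542711) and mir-30c-2 (chr9:29562369-29562480) lay on the plus strand with 19657 bases between them. On the minus strand mir-30c-1 (chr5:139699870-139699967) and mir-30e (chr5:139702862-139702967) were 2894 bases apart, and mir-30b (chr7:109282658-109282752) and mir-30d (chr7:109286462-109286549) were 3709 bases apart. RefSeq places the hairpins of miR-30c-1 and miR-30e within Nfyc, which encodes a subunit of the transcription factor NF-Y.

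The sequences show what the members share and how little separates them. RefSeq (GRCr8) held a mature sequence for 4 of the 7 members, printed 5′ to 3′ with the seed, bases 2 to 8, in capitals. The others are miR-30b-5p, miR-30d-5p and miR-30e-3p.
miR-30a-5p: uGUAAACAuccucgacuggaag
miR-30e-5p: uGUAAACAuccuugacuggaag
miR-30c-5p: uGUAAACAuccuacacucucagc
miR-30a-3p: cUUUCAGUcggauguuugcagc
In GRCr8 these are chr9:33233946-33233967 on the plus strand for miR-30a-5p, chr5:139637504-139637525 on the minus strand for miR-30e-5p and chr9:33233987-33234008 on the plus strand for miR-30a-3p. miR-30c-5p lies at chr5:139634505-139634527 on the minus strand and at chr9:33253695-33253717 on the plus strand. With positions counted from 1 at the 5′ end, miR-30a-5p and miR-30e-5p differed by C13U alone and were the same at the other 21 positions. The seed GUAAACA stood in 7 of the 1512 deposited rows, the 6 rows of the 5p members and that of miR-384-5p, which had at most 7 counts in any library. The seed UUUCAGU stood in 3 rows, those of miR-30a-3p, miR-30e-3p and miR-30d-3p.

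The rows stood for longer forms than the reference in 4 of the 5 5p members. Rows of miR-30a-5p, miR-30d-5p and miR-30e-5p were 2 bases longer at the 3′ end than the miRBase sequence given beside them, and those of miR-30c-5p 1 base longer. The added bases are in capitals here, in the DNA letters of the table.
miR-30a-5p row: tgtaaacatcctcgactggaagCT
miR-30e-5p row: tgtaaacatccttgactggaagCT
miR-30c-5p row: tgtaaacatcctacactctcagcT
Each of these longer forms was present in its deposited hairpin. The row of miR-30e-3p carried C22T against its miRBase sequence and was not present as such in the hairpin. miR-30c-5p had a row for each of its 2 hairpins with the same values in both, and these were summed. The sum was an odd whole number in several libraries, such as 753 in NPPC replicate 1 and 127 in NPC replicate 1. Each row thus held an equal part of a count, not a full copy of it. Which hairpin the reads came from, and how reads were divided between near-identical members, is uncertain.

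Library totals ran from 819845 to 1416940 estimated counts in NPPC and from 329011 to 681591 in NPC exosomes, so every NPPC library was the deeper. NPC replicate 1 stood apart: its TMM factor, which scales libraries to each other, was 1.801, and the others lay between 0.815 and 1.04. Over 277 rat mature names, which are not independent replicates, deviations from the mean over libraries rose with the share of G and C bases there. The Spearman correlation was 0.855 in NPC replicate 1, and -0.039, -0.557 and -0.169 in NPC replicates 2 to 4. In NPPC libraries it was -0.622 to -0.361. The mean over libraries includes NPC replicate 1. Fold changes of the members and of the listed miRNAs below are therefore also given without NPC replicate 1. NPC replicates 2 and 4 also lay above every NPPC library in this correlation, so leaving out NPC replicate 1 may not remove a GC difference between the groups. Marker miRNAs of blood, endothelial, epithelial and liver cells were detected, as were cartilage miRNAs. Summed CPM (counts scaled to a common library size) of 3 erythrocyte names ran from 197 to 1498 in NPPC and from 344 to 526 in NPC exosomes, of the leukocyte list (3 of 4 names matched) from 88.0 to 184 and from 16.9 to 202, and of the epithelial list (3 of 5) from 33.1 to 60.0 and from 33.8 to 88.1. For 2 endothelial names they were 492 to 729 and 251 to 715, and for 3 liver names 348 to 404 and 290.3 to 1033. For the 4 cartilage names they were 9200.0 to 9969 in NPPC and 10842 to 14648 in NPC exosomes, without overlap. Of single features tested, 14.3% did not overlap. Most of the cartilage sum was miR-140-3p, at 7663 ± 366 CPM in NPPC and 10725 ± 2083 CPM in NPC exosomes (SD, n = 4 each). Its log2 fold change was -0.48, and -0.34 without NPC replicate 1. The other 3 cartilage names had log2 fold changes above 0, and the median over the 4 was 0.19 (0.13 without NPC replicate 1). The leukocyte name without a rat row was miR-223-3p, which the sum leaves out. A row with its mouse name averaged 59.5 CPM in NPPC and 52.9 CPM in NPC exosomes. The part of these markers in the results was not tested.

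The 5 5p members together held 1.33% ± 0.0928 (SD, n = 4) of NPPC counts and 1.24% ± 0.106 (SD, n = 4) of NPC counts. Shares by library ran from 1.23% (95% Wilson interval 1.21 to 1.25) to 1.43% (1.41 to 1.46) in NPPC and from 1.15% (1.12 to 1.18) to 1.39% (1.35 to 1.43) in NPC exosomes. The groups overlapped on this scale, and the highest NPC share was that of replicate 1. Such intervals cover counting error only.

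On the TMM scale, which assumes that most miRNAs do not differ, the 5p sum lay higher in each NPPC library. It stood at 14388, 14207, 16372 and 15630.5 CPM in NPPC replicates 1 to 4, against 7720.0, 11853, 13500.4 and 11057 CPM in NPC replicates 1 to 4. Every NPPC library lay above every NPC library here, and NPC replicate 1 was the lowest. Of single features tested, 10.3% also lay higher in NPPC exosomes without overlap, as did 13.7% of rat names. The difference in mean log2 CPM of the 5p sum was 0.48, and 0.32 without NPC replicate 1. It was 0.099 when libraries were scaled by their totals and 0.15 with a correction of each library for GC share, so its size rests on the scaling. As a sum over chosen members it was given no test. In bulk exosome RNA, fewer vesicles carrying a miRNA and fewer copies per vesicle cannot be told apart.

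Among the 5p members, 3 were abundant and nearly level with each other. In NPPC exosomes rno-miR-30a-5p, the most abundant member there, averaged 4625 ± 216 CPM, rno-miR-30d-5p 4426 ± 306 CPM and rno-miR-30e-5p 4278 ± 339 CPM (SD, n = 4 each), and neighbours in this order differed by less than 1 SD. miR-30c-5p followed at 1186 ± 186 CPM and miR-30b-5p at 635 ± 121 CPM (SD, n = 4 each). In NPC exosomes the order by mean was miR-30d-5p at 3816 ± 273 CPM, miR-30a-5p at 3455 ± 827 CPM, miR-30e-5p at 2678 ± 1239 CPM, miR-30c-5p at 740 ± 363 CPM and miR-30b-5p at 343 ± 182 CPM (SD, n = 4 each). All 4 NPPC libraries put the members in the same order, from miR-30a-5p down to miR-30a-3p, while miR-30d-5p led in 3 of 4 NPC libraries. Those 3 include NPC replicate 1, and in NPC replicate 4 the lead was only 1920 counts against 1907 of miR-30a-5p. In NPPC replicate 3 miR-30a-5p led by 5763 counts against 5663 of miR-30d-5p. By mean CPM the 5p members ranked 34 to 94 among the 277 rat names tested, and the 3p members 110 and 142. Between miRNAs a CPM compares reads of forms 22 to 24 bases long, not molecules.

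**Figure D1:**
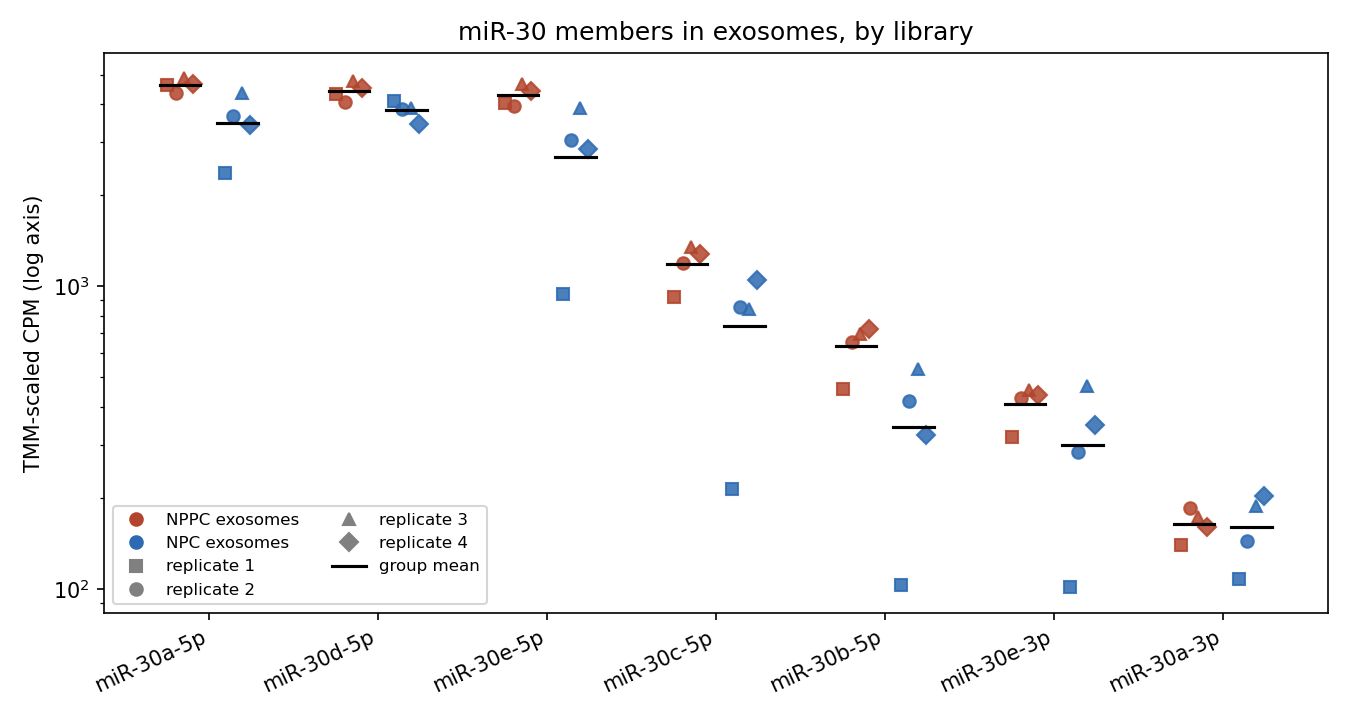
TMM-scaled CPM (log axis) of the 7 miR-30 members in each NPPC (red) and NPC (blue) exosome library; marker shapes give the replicate and black lines the group means. NPC replicate 1 lies far below the other NPC libraries for miR-30e-5p, miR-30c-5p, miR-30b-5p and miR-30e-3p, but at 4086 CPM above them for miR-30d-5p.

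miR-30e-5p, whose hairpin lies within Nfyc, was the only member whose groups did not overlap. It stood at 4050.2, 3948, 4678 and 4434 CPM in NPPC replicates 1 to 4, against 943, 3057, 3873 and 2839 CPM in NPC replicates 1 to 4. The highest NPC library lay just under the lowest NPPC library, and NPC replicate 1 was by far the lowest NPC library. Over all 447 features tested, 14.3% did not overlap and 10.3% lay higher in NPPC exosomes without overlap, as did 13.7% of the rat names, so 1 member of 7 is close to the background. The log2 fold change of NPPC over NPC was 0.68 ± 0.37 (SE), with an adjusted p of 0.480 from the quasi-likelihood test of edgeR (two-sided, Benjamini-Hochberg over all features). Without NPC replicate 1 it was 0.39 ± 0.13 (SE; adjusted p = 0.184).

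miR-30b-5p, reported to repress the cystine transporter gene Slc7a11 in trophoblasts, had the largest fold change of the members. It stood at 458, 657, 698 and 726 CPM in NPPC replicates 1 to 4, against 103, 416, 532 and 322 CPM in NPC replicates 1 to 4. NPPC replicate 1 fell within the NPC range. The log2 fold change was 0.89 ± 0.45 (SE) with an edgeR adjusted p of 0.412, and 0.58 ± 0.23 (SE; adjusted p = 0.209) without NPC replicate 1.

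miR-30c-5p, one of the miRNAs reported to repress the osteoblast factor Runx2, also overlapped between the groups. It stood at 922, 1198, 1345 and 1281 CPM in NPPC replicates 1 to 4, against 214, 856, 841 and 1047 CPM in NPC replicates 1 to 4. NPC replicate 4 lay above NPPC replicate 1. The log2 fold change was 0.68 ± 0.43 (SE) with an edgeR adjusted p of 0.516, and 0.37 ± 0.16 (SE; adjusted p = 0.222) without NPC replicate 1.

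miR-30a-5p, a repressor of Becn1, and miR-30d-5p had smaller fold changes. miR-30a-5p stood at 4624, 4344, 4868 and 4663 CPM in NPPC replicates 1 to 4, against 2373, 3666, 4368 and 3413 CPM in NPC replicates 1 to 4. The groups overlapped by a narrow margin, through NPC replicate 3. Its log2 fold change was 0.42 ± 0.19 (SE) with an edgeR adjusted p of 0.373, and 0.28 ± 0.11 (SE; adjusted p = 0.208) without NPC replicate 1.

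miR-30d-5p stood at 4333, 4060.2, 4783 and 4527 CPM in NPPC replicates 1 to 4, against 4086, 3857, 3886 and 3436 CPM in NPC replicates 1 to 4. Here NPC replicate 1 was the highest NPC library. The log2 fold change was 0.21 ± 0.13 (SE) with an edgeR adjusted p of 0.482, and 0.25 ± 0.094 (SE; adjusted p = 0.207) without that library, so miR-30d-5p was the 5p member that did not shrink when it was left out. Scaled by library totals it was -0.24, the other direction.

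The 3p arms, which carry another seed and are the less abundant products of these hairpins, did not separate the groups. miR-30e-3p stood at 317, 427, 456 and 438 CPM in NPPC replicates 1 to 4, against 101, 283, 467 and 347 CPM in NPC replicates 1 to 4, with a log2 fold change of 0.45 ± 0.41 (SE; edgeR adjusted p = 0.623). Its highest library was NPC replicate 3, and without NPC replicate 1 its log2 fold change was 0.16 ± 0.22 (SE; adjusted p = 0.702). miR-30a-3p stood at 139.6, 185, 173 and 160.1 CPM in NPPC replicates 1 to 4, against 108, 144, 188 and 202 CPM in NPC replicates 1 to 4. The NPPC libraries lay within the NPC range, with a log2 fold change of 0.035 ± 0.25 (SE; edgeR adjusted p = 0.944), which was -0.11 ± 0.19 (SE; adjusted p = 0.763) without NPC replicate 1.

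By edgeR, 0 of 7 members passed an adjusted p of 0.05, where 0.224% of the 447 features did, a single miRNA, miR-146a-5p, named here for being that call. At an unadjusted p under 0.05 there were 0 members, where 14.1% of features had one. Without NPC replicate 1 there were 4 of 7 (miR-30a-5p, miR-30b-5p, miR-30d-5p and miR-30e-5p), where 21.6% of 496 features had one, and 0 members passed after adjustment, where 0.202% of features did. With the GC correction as well, miR-30d-5p had an unadjusted edgeR p of 0.030 and the other members 0.12 to 0.80. In that setting 92 of 496 features had one under 0.05. DESeq2 called 0 members and 15 features, and limma-voom 0 members and 1 feature. All 7 log2 fold changes were above 0, but so were 72.9% of those of the 277 rat names and 54.4% of all features. The median over the 7 members was 0.45, against 0.35 over rat names and 0.079 over all features. Without NPC replicate 1 the medians were 0.28, 0.22 and 0.045. Scaled by library totals they were 0.19, -0.023 and -0.35. With the GC correction they were 0.15, 0.14 and 0.044, so the members were nearly level with the rat names. With that correction and no NPC replicate 1 they were 0.14, 0.22 and 0.13, and the members lay below the rat names.

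**Figure D2:**
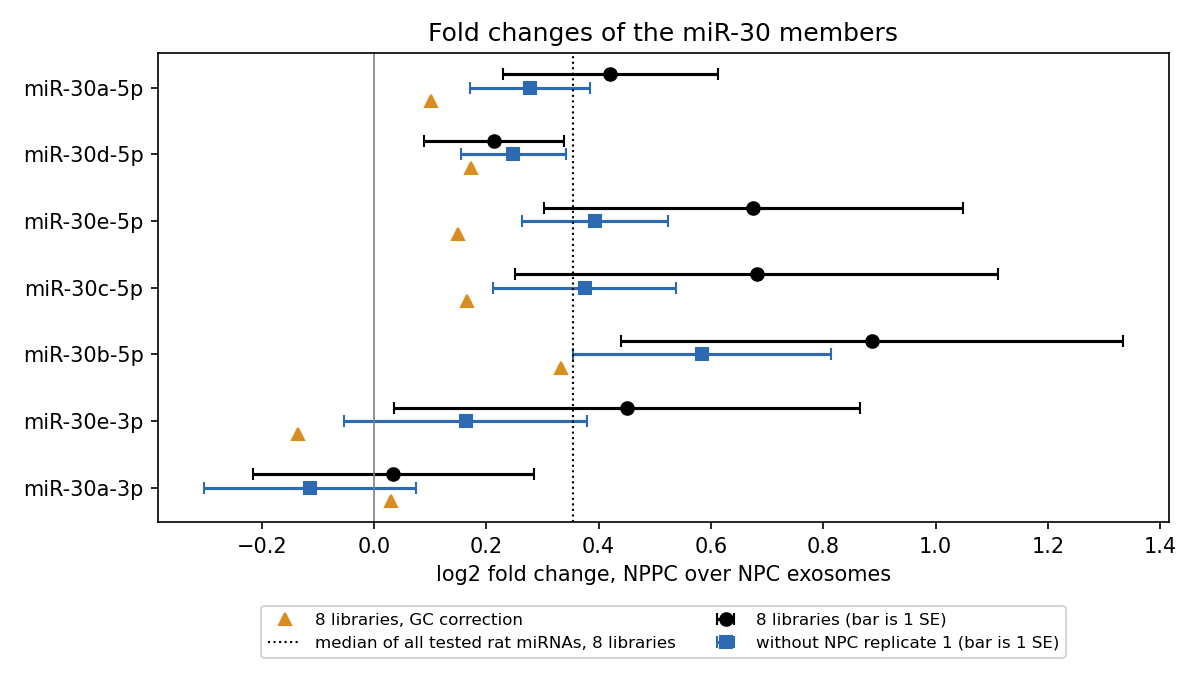
Log2 fold changes of NPPC over NPC exosomes for the 7 members, with all 8 libraries (black, bars 1 SE), without NPC replicate 1 (blue, bars 1 SE) and with a GC correction (orange); the dotted line is the median of the 277 tested rat miRNAs, 0.35. Without NPC replicate 1 the 5p members lie between 0.25 and 0.58, and with the GC correction between 0.10 and 0.33.

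The make-up of the 5p counts differed in NPC replicate 1 from that in the other 7 libraries. These shares are counts within a library and need no scaling between libraries. miR-30a-5p made up 30.6% ± 1.11 (SD, n = 4) of the 5p counts in NPPC and 31.2% ± 0.760 (SD, n = 4) in NPC exosomes, with NPC replicate 1 at 30.7%. miR-30d-5p made up 29.2% ± 0.653 (SD, n = 4) in NPPC and 36.3% ± 11.2 (SD, n = 4) in NPC exosomes, of which NPC replicate 1 held 52.9% and the other NPC libraries 28.8% to 32.5%. miR-30e-5p made up 28.2% ± 0.336 (SD, n = 4) in NPPC and 23.1% ± 7.38 (SD, n = 4) in NPC exosomes, with 12.2% in NPC replicate 1 and 25.7% to 28.7% in the others. Without that library the NPC SDs were 1.89 for miR-30d-5p and 1.71 for miR-30e-5p (n = 3), smaller but still above those of NPPC. miR-30c-5p made up 7.81% ± 0.942 (SD, n = 4) in NPPC and 6.43% ± 2.78 (SD, n = 4) in NPC exosomes, and miR-30b-5p 4.18% ± 0.687 (SD, n = 4) in NPPC and 2.93% ± 1.14 (SD, n = 4) in NPC exosomes.

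**Figure D3:**
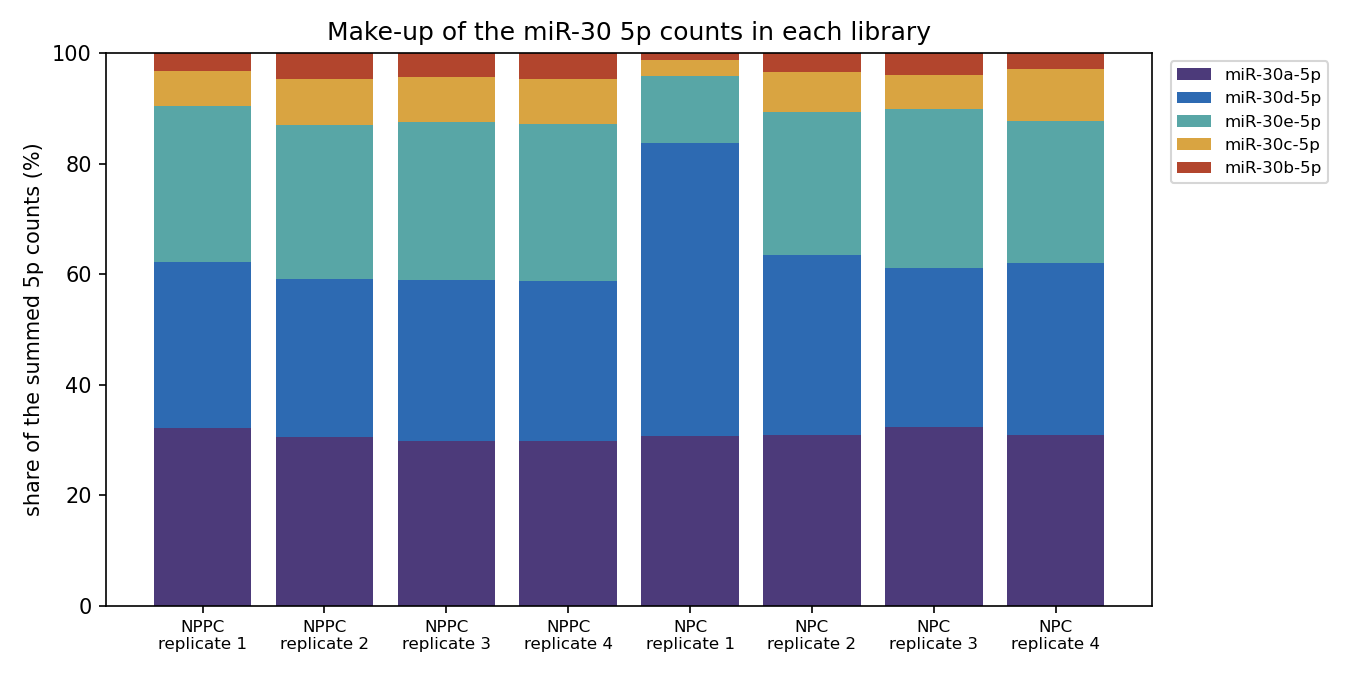
Share (%) of each 5p member in the summed miR-30 5p counts of every library, NPPC on the left and NPC on the right. In NPC replicate 1 miR-30d-5p holds 52.9% and miR-30e-5p 12.2%; in the other 7 libraries they hold 28.6% to 32.5% and 25.7% to 28.7%.

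The ratio of miR-30d-5p to miR-30e-5p counts was 1.07, 1.03, 1.02 and 1.02 in NPPC replicates 1 to 4, against 4.33, 1.26, 1.00 and 1.21 in NPC replicates 1 to 4. The ratio of miR-30a-5p to miR-30e-5p, which differ in the 1 base shown above, was 1.14, 1.10, 1.04 and 1.05 in NPPC replicates, against 2.52, 1.20, 1.13 and 1.20 in NPC replicates. The groups overlapped in both ratios, and NPC replicate 1 was the highest in each. Levels in that library were lowest for rows of low GC share. Relative to the mean of the other 3 NPC libraries, NPC replicate 1 held 1.10 times as much miR-30d-5p (50.0% GC), 0.622 times as much miR-30a-5p (45.8%), 0.290 times as much miR-30e-5p (41.7%), 0.234 times as much miR-30c-5p (41.7%) and 0.243 times as much miR-30b-5p (40.9%). For the 3p arms it was 0.607 for miR-30a-3p (50.0%) and 0.277 for miR-30e-3p (40.9%). Other rat miRNAs gave a median of 0.240 at 40% to under 43% GC (44 names, quartiles 0.182 to 0.374), 0.648 at 43% to under 48% (56 names) and 0.904 at 48% to under 52% (24 names, quartiles 0.736 to 1.12). By the GC share of the rows, miR-30a-3p was the member under the lower quartile of its range. The miRBase sequences of miR-30e-3p and miR-30c-5p hold 45.5% and 43.5% GC, more than their rows. By those shares both would lie under 0.475, the lower quartile of the 43% to under 48% range. The part of GC share in these ratios was not tested.

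The arms of a hairpin can be set against each other within a library, without scaling. For miR-30a the 5p count exceeded the 3p count 33.1, 23.5, 28.1 and 29.1 times in NPPC replicates 1 to 4, against 22.0, 25.5, 23.2 and 16.9 times in NPC replicates 1 to 4. The groups overlapped through NPPC replicate 2 and NPC replicate 2, where 8.57% of hairpins did not overlap. The mean log2 ratio was 4.82 ± 0.20 in NPPC and 4.43 ± 0.25 in NPC exosomes (SD, n = 4 each), a difference of 0.39 ± 0.28 (SE; 95% confidence interval -0.26 to 1.03). It did not pass limma's two-sided test over 70 hairpins (Benjamini-Hochberg adjusted p = 0.556), and the two-sided exact permutation p was 0.0571, where 0.0286 is the smallest that 70 arrangements can give. The difference was 0.39 without NPC replicate 1, 0.19 with libraries thinned to equal depth and 0.058 with the GC correction.

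For miR-30e the 5p count exceeded the 3p count 12.8, 9.25, 10.3 and 10.1 times in NPPC replicates 1 to 4, against 9.32, 10.8, 8.29 and 8.18 times in NPC replicates 1 to 4. The groups overlapped, and NPC replicate 1 lay within the range of the other NPC libraries although both of its arms were low there. The mean log2 ratio was 3.39 ± 0.20 in NPPC and 3.18 ± 0.18 in NPC exosomes (SD, n = 4 each), a difference of 0.22 ± 0.25 (SE; 95% confidence interval -0.35 to 0.78; limma adjusted p = 0.673; two-sided exact permutation p = 0.200). Of the 70 hairpins with both arms tested, 0 passed by limma (0% of hairpins) and 7 had an unadjusted p under 0.05, miR-30d among them. In 39 of the 70 the 5p arm was the more abundant, and by mean log2 ratio miR-30a ranked 17 and miR-30e 20 from the most 5p-dominant. In all 8 libraries the 5p arm made up a larger part of miR-30a, 94.4% to 97.1%, than of miR-30e, 89.1% to 92.7%.

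**Figure D4:**
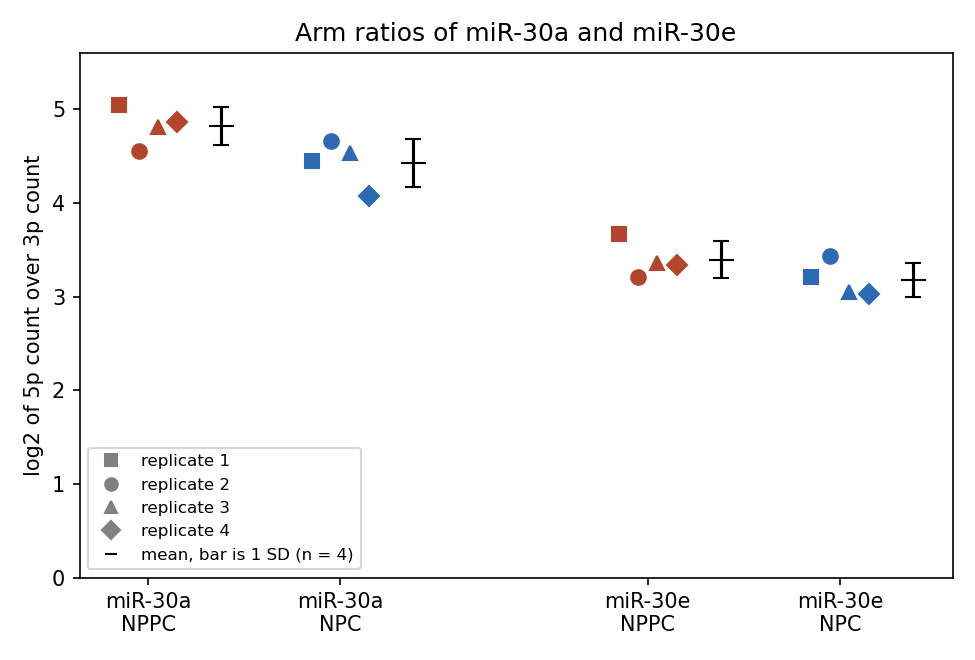
Log2 ratio of 5p to 3p counts for miR-30a and miR-30e in each library (marker shape gives the replicate), NPPC left of NPC, with means and 1 SD (n = 4). The 5p arm is 16.9 to 33.1 times as abundant as the 3p arm for miR-30a and 8.18 to 12.8 times for miR-30e, and the groups overlap.

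The remaining miR-30 arms were rare. miR-30d-3p had 23, 22, 28 and 17 counts in NPPC replicates 1 to 4, against 0, 5, 9 and 0 in NPC replicates 1 to 4. All NPPC libraries were higher, but the NPPC libraries were also deeper, and its edgeR adjusted p was 0.442. With 0.5 added to each arm, the log2 ratio of 5p to 3p counts of miR-30d was thus lower in NPPC exosomes, at a mean of 7.60 in NPPC and 10.22 in NPC exosomes, the opposite sign to the differences of miR-30a and miR-30e. That difference of -2.63 ± 1.04 (SE) had an unadjusted p of 0.0350 and an adjusted p of 0.433 by limma, and was -1.96 ± 0.95 (SE; adjusted p = 0.380) without NPC replicate 1. Because 2 NPC libraries had 0 counts of the 3p arm, its size depends on the added 0.5. miR-30c-2-3p had 0 to 23 counts in NPPC and 0 to 11 in NPC libraries (edgeR adjusted p = 0.83). miR-30c-1-3p had 9 counts in NPPC replicate 3 and 0 elsewhere. A row with a hamster name, cgr-miR-30b-3p, had at most 6 counts in an NPPC and 7 in an NPC library.

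The miRNAs closest in pattern to the 5p sum were found by the root mean square difference of log2 CPM, centred on each miRNA's mean over the 8 libraries. Over 270 other rat names the median of this measure was 0.57. The 5 closest were miR-107-3p at 0.081, miR-221-3p at 0.16, miR-872-3p at 0.16, miR-103-3p at 0.18 and miR-23a-3p at 0.18. These 5 names had a GC share of 45.5% to 50.0%. The measure included NPC replicate 1, the library with the lowest 5p sum, and the part of GC share in the likeness was not tested. Closest to miR-30a-3p were miR-672-5p (0.17), miR-152-3p (0.18) and miR-143-3p (0.19), and closest to miR-30e-3p were miR-10b-5p (0.18), let-7d-5p (0.19) and miR-411-5p (0.19).

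Other miRNAs reported to act on the same genes or processes were counted without the miR-30 members that the lists also hold, and by edgeR none passed. Over rat names, 72.9% had a log2 fold change above 0, with a median of 0.35 (0.22 without NPC replicate 1), and 13.4% had an unadjusted p under 0.05. Of 10 other miRNAs reported to repress Runx2, 4 were tested and 3 were above 0, with a median of 0.51 (0.32 without NPC replicate 1) and 1 at an unadjusted p under 0.05, close to those shares for so few names. That one, miR-218a-5p, stood at 549 ± 67.7 CPM in NPPC and 239 ± 114 CPM in NPC exosomes (SD, n = 4 each), a log2 fold change of 1.20 ± 0.42 (SE; edgeR adjusted p = 0.294) that was 0.90 without NPC replicate 1. miR-34c-5p, a target of p53, had -0.11, and -0.13 without that library. miR-23a-3p had 0.34, which dropped to 0.15 without it.

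Of 9 other miRNAs reported to repress autophagy genes, 7 were tested and 7 were above 0 (6 without NPC replicate 1), with a median of 0.79 (0.61 without it) and 3 at an unadjusted p under 0.05. These 3 were miR-17-5p, miR-93-5p and miR-106b-5p, all of the miR-17 family, to which miR-20a-5p in this list also belongs. They are related names and do not count as separate results. miR-181a-5p had 0.16, and 0.22 without that library. miR-101a-3p had 0.34 and turned to -0.055 without it, so its direction rested on NPC replicate 1. miR-93-5p had 0.64, and 0.61 without it.

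Ferroptosis, a death of cells through iron-driven lipid peroxidation and a word of the series title, gave the last list. Of 12 other miRNAs with reported targets among its genes, 9 were tested and 9 were above 0 (9 without NPC replicate 1), with a median of 0.82 (0.54 without it) and 2 at an unadjusted p under 0.05. miR-27a-3p, reported to repress Slc7a11, stood at 7647 ± 812 CPM in NPPC and 5630 ± 364 CPM in NPC exosomes (SD, n = 4 each) without overlap. Over rat names, 13.7% lay higher in NPPC exosomes without overlap. The log2 fold change of miR-27a-3p was 0.44 ± 0.13 (SE; edgeR adjusted p = 0.294), and was 0.44 without NPC replicate 1 too. miR-214-3p had 0.10, and 0.36 without that library. miR-26b-5p, which shares its seed with miR-26a-5p, had 0.99, and 0.59 without it. The lists share miRNAs with each other. miR-17-5p, with an unadjusted edgeR p of 0.0056, stood in both the autophagy and the ferroptosis list.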

How the data were processed

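Small RNA libraries were made with a TruSeq small RNA kit from RNA of an exosome RNA kit, per the labels' protocols. The submitters' processing notes name CASAVA 1.8. Not given in the sources used here: aligner, miRBase version and build. The deposited table of the authors holds estimated counts by miRNA and hairpin, of which 82.3% of 5804 values above 0 were whole within 1e-09, and scaled signal columns equal to the count times 1 factor per library. The lowest value above 0 was 1.25.

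Rat rows were summed per mature name, other rows kept, and sums rounded. edgeR 4.0.16 in R 4.3.3 (TMM, filterByExpr, quasi-likelihood, group as the only term) tested 447 of 1472 features. CPM are TMM-scaled; log2 CPM used a prior count of 2. The SE is the log2 fold change divided by the root of the F statistic. Arm ratios used log2 with 0.5 added per count and limma 3.58.1 with a trend. Tests were tested on simulated data. Figures used matplotlib 3.10.9.

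Members, lists, alternatives and the naming rule were chosen with earlier results of these data known. Named were the members, other miR-30 rows, closest patterns, and up to 4 tested members of each target list by mean CPM. Also named were the cartilage miRNA with the highest CPM, and the autophagy-list miRNAs at an unadjusted p under 0.05 with their relative miR-20a-5p. Alternatives were 4 other scalings, including DESeq2 1.42.0 size factors, 2 filters, the Wald test of DESeq2, limma-voom, a replicate block, 3 other feature definitions, a GC correction (loess, span 0.75), thinning, libraries left out and, for arms, a pseudocount of 5, an exact permutation test and another trend. The other trend, and the GC correction with NPC replicate 1 left out, were chosen after seeing the data. Correlations of the deviations of same-numbered libraries ran from -0.0864 to 0.220, so the numbers were not taken as pairs. No 2 libraries of a group agreed within sampling noise.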

Additional observations from a re-analysis of the deposited data

Results flagged for a closer look

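Groups of 4 libraries were examined for a library far from the other 3, which chance gives in about 1 in 20 independent groups. The groups here share member counts and libraries, so their number cannot be read against that share. Of 38 groups, 6 held such a library. In 3 of them it was NPC replicate 1: its ratio of miR-30d-5p to miR-30e-5p counts was 4.33 (others 1.00 to 1.26), its ratio of miR-30a-5p to miR-30e-5p was 2.52 (others 1.13 to 1.20), and its share of miR-30d-5p in the 5p counts was 52.9% (others 28.8% to 32.5%). In NPPC replicate 1 the ratio of miR-30d-5p to miR-30e-5p was 1.07 (others 1.02 to 1.03) and the share of miR-30c-5p was 6.41% (others 8.19% to 8.43%). In NPC replicate 3 the share of miR-30a-5p was 32.4% (others 30.7% to 30.9%).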

How the results depend on the processing

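Over 24 alternatives no member passed, and miR-30a-5p, miR-30b-5p, miR-30c-5p and miR-30e-5p kept a log2 fold change above 0, at 0.069 to 0.56, 0.31 to 1.17, 0.088 to 0.91 and 0.14 to 0.91. miR-30d-5p turned to -0.24 with total count scaling and -0.070 with rat names only, and miR-30e-3p to -0.14 with the GC correction and -0.11 with it and no NPC replicate 1. miR-30a-3p turned in 10: -0.032 with DESeq2 size factors, -0.33 with total counts, -0.061 with the authors' scaling, -0.043 with the DESeq2 Wald test, -0.22 with rat names only, -0.043 without both libraries numbered 1, -0.054 with the GC correction and no NPC replicate 1, and, with 1 library left out, -0.11 to 0.16. The difference in the log2 5p sum was 0.099 with total counts, 0.21 with rat names only, 0.15 with the GC correction and 0.20 with it and no NPC replicate 1, and 0.32 to 0.60 with 1 library left out. The causes were not tested. The number of features passing was 1 of 447, 2 without a filter, 15 with DESeq2 (6 higher, 9 lower in NPPC), 47 without both libraries numbered 1, and, with 1 library left out, 0 to 1 (1 without NPC replicate 1, 0 without any of the other 7). With the replicate block 0 passed (76 at an unadjusted p under 0.05) and member log2 fold changes included 0.83 for miR-30e-5p and 1.08 for miR-30b-5p; same-numbered libraries are not shown to be pairs. For the arms, differences kept their sign over 19 alternatives each, at 0.058 to 0.48 for miR-30a and 0.12 to 0.30 for miR-30e, with 0.39 and 0.22 under the replicate block; 1 hairpin passed without both libraries numbered 1. Counts of 60 to 281 in the 3p arms of NPC libraries limit the precision of their ratios.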
